A study of Bos taurus with 8 samples.

Results

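Fatty acid oxidation and the targets of the peroxisome proliferator-activated receptors (PPARs) were followed here through 30 genes of the rumen epithelium, the stratified epithelium of the cow's forestomach. A probe was taken for a gene when the array design names that gene, and the brightest probe that stood well above background on 4 or more of the 8 arrays was kept. All 30 genes had 1 probe each, among 14960 genes on the array. Of the 30, 25 passed the filter on dim probes and were tested, against 10207 genes of the whole series. PPARGC1A, EHHADH, PDK4, UCP2 and UCP3 did not pass and are described by their levels and bounds. Closest to that limit, PPARA passed with 5 arrays and UCP2 missed it with 3. No measured value chose the genes, although they were chosen with earlier results of these data known.

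The study fed Holstein bull calves with a rumen fistula (7.4 ± 0.3 months, 215.2 ± 20.4 kg) 2 diets in a cross-over that had no wash-out between them. The WP diet was a high-grain diet in which wood kraft pulp, a fibre source, took the place of 50% of the corn flakes. The control diet was the same high-grain diet with all of its corn flakes, so both groups were on a high-grain feed. Each diet lasted 14 days. The study used 5 bulls, and arrays of 4 calves, numbered 21, 23, 24 and 25, were analysed here, with 1 WP array and 1 control array per calf. The labels do not say which diet each calf received first.

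Mitochondrial fatty acid oxidation begins when the carnitine shuttle carries long-chain acyl groups into the mitochondrion, where dehydrogenases, hydratases and thiolases shorten them and pass the electrons to the respiratory chain. Peroxisomes run a related cycle on substrates that mitochondria handle poorly. The PPARs are nuclear receptors that bind fatty acids and, with retinoid X receptors, switch on many genes of both cycles together with lipid droplet, lipase inhibitor and fuel selection genes. Rumen epithelium takes up short-chain fatty acids from fermentation, oxidises butyrate and makes ketone bodies from it.

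The probes of 7 genes carry the patterns described below, and their first 30 of 60 bases are shown 5′ to 3′ as the array design gives them. CPT1A, ACADL, ANGPTL4 and PLIN2 are shown because they had the largest positive differences between slide rows, row 1 minus row 2, among tested genes. CRAT and ACAA1 are examples of genes lower on WP in every calf, as ACADVL also was. EHHADH is shown because its diets did not overlap.
CPT1A: tcgtacattctcgtcggtgaggacctcatc
ACADL: gaaatactgggcatctgatttgcaaaacag
ANGPTL4: gtgctgtgagtcagctggcgcccacggcgt
PLIN2: aggagtctttagatgatgtgatggattatc
CRAT: aggctgagtccagaaactgaacaggaggtt
ACAA1: agtgccacaccacaggagggatagcaagtc
EHHADH: tgactatcttaaaaaactggcttcccaggg
On UMD 3.1 these probes lie at chr29:46824212-46824271 (CPT1A, minus strand), chr2:98422344-98424592 (ACADL, minus), chr7:18243511-18243570 (ANGPTL4, plus), chr8:25137238-25137297 (PLIN2, plus), chr11:99577185-99577244 (CRAT, minus), chr22:11619827-11619886 (ACAA1, minus) and chr1:82520533-82520592 (EHHADH, plus). The ACADL probe has 60 bases but its alignment spans 2249 bases of genome, as do those of ETFA (3557 bases) and ETFDH (6752 bases), so these 3 probes join separate genomic stretches. The other 27 alignments are as long as the probe. Whether a probe lies in a coding exon or a UTR was not analysed here.

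Levels below are log2 processed signal minus the array's 75th percentile, a scale on which 0 is the 75th percentile of that array. Levels of different probes are not set against each other. Between 9314 and 11990 of 15008 probes were well above background per array, no spot was saturated, and the number of arrays limits the precision. The WP array of calf 24 stood apart, with a negative control median of 4.06 intensity units against 1.20 to 1.90 on the other 7 arrays, and 73 of the 97 spots flagged as outliers. The control probes named E1A had a median of 40.7 on that array, against 1.36 to 1.97 on the other 7. All 14 markers of stratified epithelium were tested, and KRT5 ranged from 6.18 to 7.20 on WP arrays and from 6.25 to 6.94 on control arrays.

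No gene of the set passed the test between diets. Limma with calf as a block gave adjusted p values from 0.658 to 0.995 over the 25 tested genes, and 0 of 10236 probes passed in either direction (background 0% higher and 0% lower). At an unadjusted p under 0.05, 0 of the 25 passed, where 6.99% of all probes did. The lowest unadjusted p of the set was 0.0790, for CRAT. The median 95% interval, not adjusted for the number of probes, reached 0.50 to each side on the log2 scale. Diet differences smaller than that were thus mostly not detectable even at an unadjusted p under 0.05, and the adjusted threshold asks for larger ones. In simulated data with 200 of 10194 probes changed, 74.4% of 4-fold changes and 38.1% of 2-fold changes were recovered at this number of arrays.

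The diet differences were small in most genes of the set. The median of the 25 differences, WP minus control, was 0.03, against 0.09 for all probes tested, and 18 of the 25 were under 0.2 in size. In direction, 17 were positive and 8 negative, beside 64.4% positive among all probes. The median size of a difference was 0.12 in the set and 0.18 over all probes. With quantile or cyclic loess scaling, the median of all probes lay at -0.02 and -0.0039 in place of 0.09, and the set divided into 13 positive and 12 negative or 12 positive and 13 negative differences. The sign of a small difference thus depended on the scaling. Without calf 24, whose WP array stood apart, 0 of the 25 passed and 15 differences were positive and 10 negative.

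**Figure D1:**
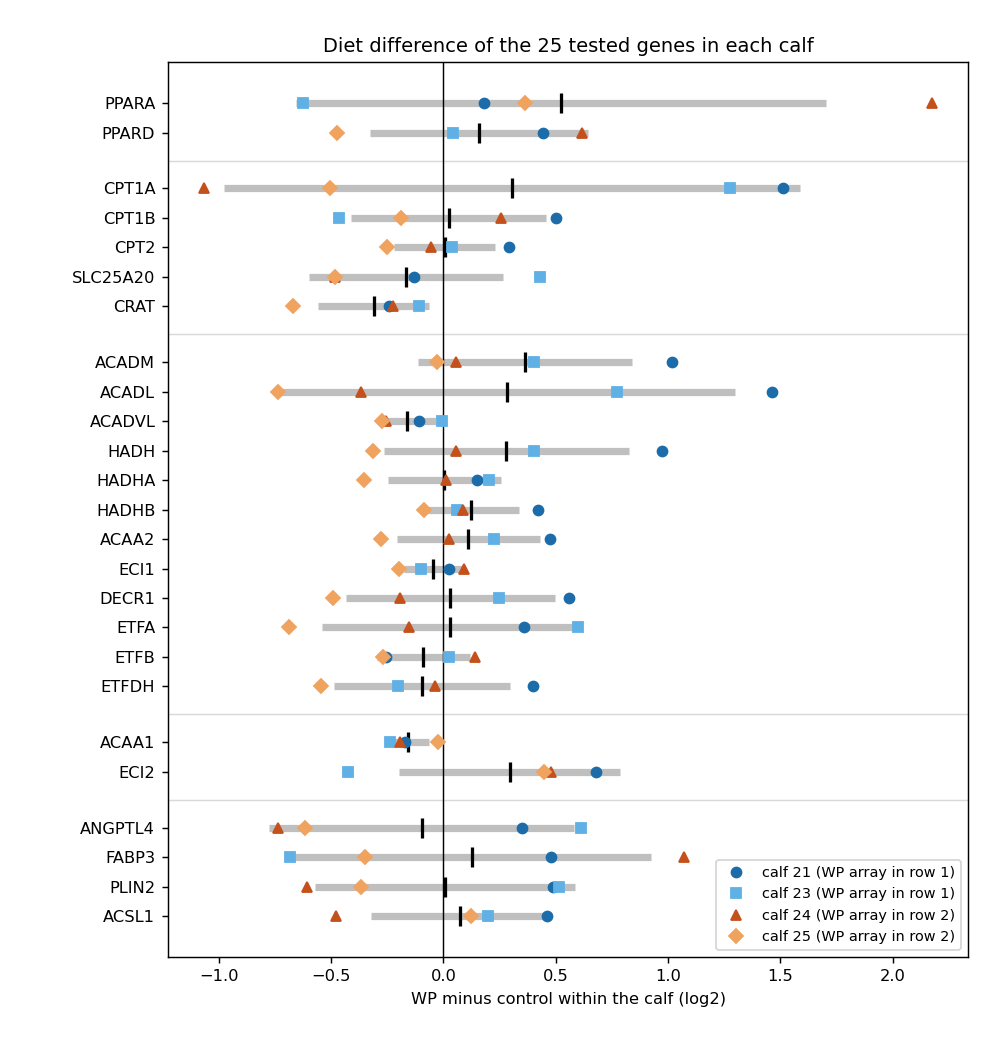
Each row is a tested gene and the x axis is the WP minus control difference of log2 level. Coloured points are the 4 calves, black ticks the mean and grey bars ± SD, with lines between regulators, carnitine shuttle, mitochondrial, peroxisomal and inducible genes from top to bottom. The points of calves 21 and 23 lie on the other side of 0 from those of calves 24 and 25 in CPT1A, CPT2, ACADL, DECR1, ETFA, ANGPTL4 and PLIN2.

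The regulators were dim. PPARA, the fatty acid receptor best known from liver, had levels of -4.51, -4.67, -2.83 and -5.38 on the WP arrays of calves 21, 23, 24 and 25, against -4.69, -4.05, -5.00 and -5.74 on their control arrays. Its diets overlapped, and the value of calf 24 on WP was the highest of the 8 and came from the array with raised negative controls. The PPARA difference was 0.52 ± 1.18 (SD, n = 4; adjusted p = 0.723, limma), with a 95% interval from -0.65 to 1.70. Without calf 24 the PPARA difference was -0.03. The probe was well above background on 2 WP and 3 control arrays.

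PPARD, the receptor expressed in many epithelia, had levels of -4.01, -4.70, -3.89 and -4.45 on WP and -4.45, -4.74, -4.51 and -3.98 on control. The PPARD ranges overlapped, with a difference of 0.16 ± 0.49 (SD, n = 4; adjusted p = 0.811, limma) that became -0.59 under quantile and -0.35 under cyclic loess scaling. The coactivator PPARGC1A, which drives mitochondrial gene programmes, had levels of -6.66, -6.86, -3.71 and -7.34 on WP and -5.51, -5.92, -7.64 and -7.24 on control. PPARGC1A was well above background on 2 arrays only, WP of calf 24 and control of calf 21, and was not tested.

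**Figure D2:**
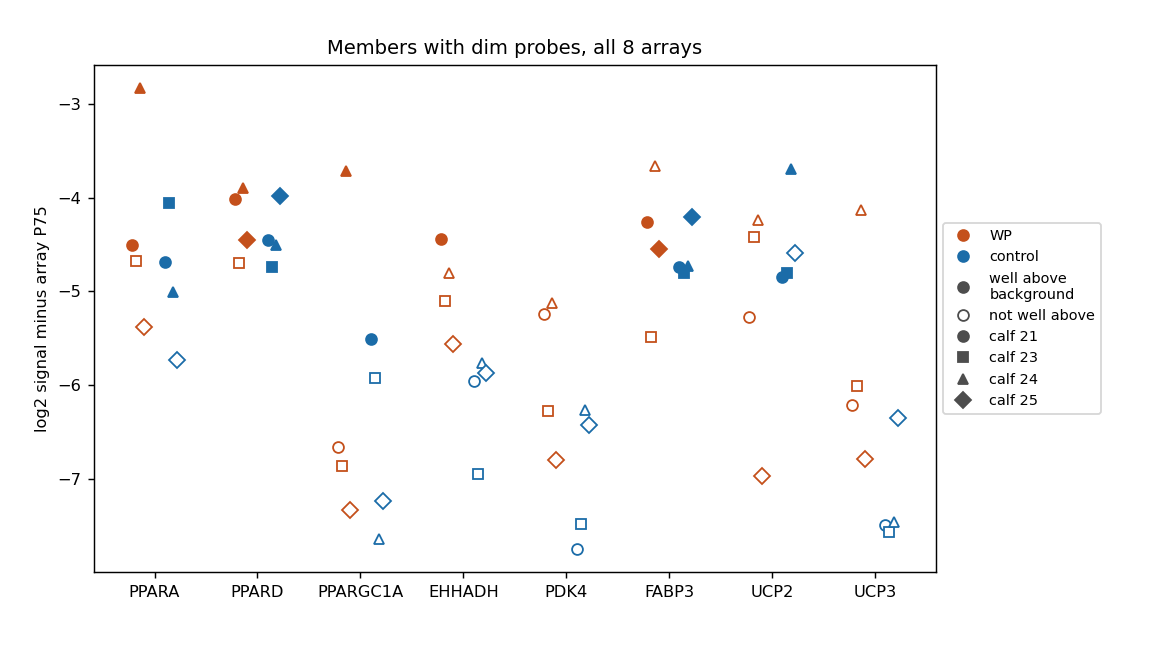
The y axis is the level (log2 signal minus the array's 75th percentile) of the 8 genes with dim probes, WP in orange left of control in blue, with a symbol per calf. Filled symbols were well above background and open ones were not. PDK4 and UCP3 have no filled symbol, and the WP and control symbols of EHHADH do not overlap.

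In the carnitine shuttle, the 5 genes had a median difference of 0.01, and its sign differed between calves. Calf by calf, from 21 to 25, the medians were 0.29, 0.04, -0.22 and -0.48. CPT1A, the outer membrane carnitine palmitoyltransferase that controls entry, had levels of 1.61, 1.16, -0.45 and 0.59 on WP, against 0.10, -0.11, 0.61 and 1.10 on control. WP was higher in calves 21 and 23 and lower in calves 24 and 25, and the diets overlapped. The mean CPT1A difference of 0.30 ± 1.28 (SD, n = 4; adjusted p = 0.845, limma) averages 1.51, 1.27, -1.06 and -0.51, with a 95% interval from -0.96 to 1.57. Without calf 21 the mean was -0.10, and without calf 24 it was 0.76.

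CPT2, the inner membrane transferase that releases the acyl group to coenzyme A, had levels of 3.21, 3.28, 3.20 and 3.06 on WP and 2.91, 3.25, 3.25 and 3.31 on control. Its diets overlapped and its difference was 0.01 ± 0.23 (SD, n = 4; adjusted p = 0.992, limma), with an interval from -0.34 to 0.36. CPT1B, the muscle type of the entry enzyme, differed by 0.02 ± 0.43, and SLC25A20, the carnitine carrier, by -0.17 ± 0.43.

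CRAT, the acetyltransferase that exports short acyl groups as carnitine esters, had levels of 0.64, 0.96, 0.87 and 0.48 on WP and 0.88, 1.07, 1.09 and 1.15 on control. WP was lower in 4 of 4 calves, although the ranges of the diets overlapped between 0.88 and 0.96. The difference was -0.31 ± 0.25 (SD, n = 4; unadjusted p = 0.0790, adjusted p = 0.658, limma), a ratio of 0.806, with an interval from -0.67 to 0.05. Over the alternative settings the CRAT difference stayed between -0.38 and -0.19, and its unadjusted p was under 0.05 after normexp background correction and with limma's variance trend and robust prior set together. Among all probes, 5.39% were lower on WP in 4 of 4 calves, and 3 of the 25 tested genes were: CRAT, ACADVL and ACAA1. No tested gene of the set was higher on WP in 4 of 4 calves, where 11.9% of all probes were.

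The 12 genes of the mitochondrial cycle had a median difference of 0.03, with 8 positive and 4 negative. Their medians per calf were 0.41, 0.21, 0.02 and -0.29 in calves 21, 23, 24 and 25, where those of all probes were 0.12, 0.03, 0.14 and -0.00024. ACADM, the medium-chain acyl-CoA dehydrogenase (chr3:69361218-69361277), had levels of 0.12, -0.09, -0.49 and -0.05 on WP and -0.90, -0.50, -0.55 and -0.02 on control. The control array of calf 21 was the lowest, and the diets overlapped. ACADM differed by 0.36 ± 0.48 (SD, n = 4; unadjusted p = 0.144, adjusted p = 0.663, limma), which was the largest difference of the cycle. Without calf 21, the ACADM difference was 0.14.

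The long-chain acyl-CoA dehydrogenase ACADL had levels of -0.55, -0.49, -1.27 and -1.62 on WP, against -2.02, -1.26, -0.90 and -0.89 on control. As in CPT1A, WP was higher in calves 21 and 23 and lower in calves 24 and 25. The mean ACADL difference was 0.28 ± 1.02 (SD, n = 4; adjusted p = 0.818, limma). The very long-chain enzyme ACADVL (chr19:27573203-27573262) had levels of 4.57, 4.53, 4.29 and 4.02 on WP and 4.68, 4.54, 4.55 and 4.29 on control. ACADVL was lower on WP in 4 of 4 calves, by 0.01 in calf 23 and by up to 0.27 in calf 25, and the diets overlapped. Its difference was -0.16 ± 0.13 (SD, n = 4; adjusted p = 0.679, limma), and it was 0.13 within slide row 1 and -0.45 within row 2. Row 1 alone sets WP of calves 21 and 23 against control of calves 24 and 25, and row 2 the reverse. The values within a row thus compare different calves, unpaired.

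The trifunctional protein carries the later steps for long chains. Its alpha subunit HADHA (chr11:73288549-73288608) had levels of 3.16, 3.40, 3.18 and 2.93 on WP and 3.01, 3.19, 3.17 and 3.28 on control. Its beta subunit HADHB (chr11:73215738-73215797) had levels of 1.34, 1.38, 1.35 and 1.18 on WP and 0.91, 1.32, 1.27 and 1.27 on control. The diets overlapped in both, WP was lower only in calf 25, and the differences were 0.00 ± 0.25 and 0.12 ± 0.22 (SD, n = 4 each; adjusted p = 0.995 and 0.770, limma). The probes of this gene pair lie on opposite strands with 72751 bases between them.

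The other members of the cycle had like sizes. HADH, the short-chain hydroxyacyl dehydrogenase, differed by 0.28 ± 0.55, with 0.97 in calf 21 and -0.31 in calf 25. The thiolase ACAA2 differed by 0.11 ± 0.32, the enoyl isomerase ECI1 by -0.05 ± 0.13 and the dienoyl reductase DECR1 by 0.03 ± 0.47. Of the electron transfer flavoprotein and its dehydrogenase, ETFA differed by 0.03 ± 0.57, ETFB by -0.09 ± 0.21 and ETFDH by -0.10 ± 0.39. These 7 genes were well above background on all 8 arrays.

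Among the 3 peroxisomal genes, ACAA1, the peroxisomal thiolase, had levels of 3.49, 3.35, 3.16 and 3.48 on WP and 3.66, 3.59, 3.35 and 3.50 on control. ACAA1 was lower on WP in 4 of 4 calves, by 0.02 to 0.24, and its diets overlapped. Its difference was -0.16 ± 0.09 (SD, n = 4; adjusted p = 0.678, limma), the smallest spread between calves in the set. ECI2, a peroxisomal and mitochondrial enoyl isomerase (chr23:49915210-49915269), differed by 0.30 ± 0.49 (SD, n = 4; adjusted p = 0.679, limma), with WP lower in calf 23 only.

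EHHADH, the peroxisomal bifunctional hydratase and dehydrogenase and known as a PPARA target in rodents, had levels of -4.44, -5.10, -4.80 and -5.56 on WP and -5.96, -6.95, -5.77 and -5.87 on control. Each WP array lay above each control array, and EHHADH was the only gene of the 30 whose diets did not overlap. It was well above background only on the WP array of calf 21, so it was not tested, its levels are mostly at background, and no fold is given. Dim probes lay higher on WP as a group: of the 4772 probes that missed the filter, 94.9% had a positive difference, with a median of 0.93. Of those dim probes, 5.87% had each WP array above each control array, beside 4.85% of the 10236 tested probes whose diets did not overlap in either direction.

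Of the 7 inducible targets, 4 were tested, and their median difference was 0.04. Calf by calf the medians were 0.47, 0.36, -0.54 and -0.36. ANGPTL4, the secreted inhibitor of lipoprotein lipase, had levels of 0.89, 0.98, 0.21 and 0.22 on WP and 0.54, 0.37, 0.95 and 0.83 on control. The highest and the 2 lowest of the 8 arrays were all WP, so the diets overlapped. ANGPTL4 differed by -0.10 ± 0.68 (SD, n = 4; adjusted p = 0.916, limma), and without calf 24 by 0.12.

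PLIN2, the coat protein of lipid droplets outside fat tissue, had levels of 2.86, 3.23, 2.30 and 2.20 on WP and 2.38, 2.71, 2.91 and 2.56 on control. The highest and the lowest array were both WP. Its difference was 0.01 ± 0.58 (SD, n = 4; adjusted p = 0.994, limma), and it ranged from -0.16 to 0.21 with 1 calf left out. FABP3, a cytosolic fatty acid carrier, differed by 0.13 ± 0.79 and was well above background on 2 WP and 4 control arrays. ACSL1, which activates fatty acids to acyl-CoA, differed by 0.08 ± 0.40.

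PDK4, the kinase that turns pyruvate dehydrogenase off in fasting, was not well above background on any array. Its levels were -5.24, -6.28, -5.12 and -6.80 on WP and -7.75, -7.49, -6.26 and -6.42 on control, and no fold is given. UCP2, an inner membrane carrier (chr15:54199147-54199206), had levels of -5.27, -4.42, -4.24 and -6.97 on WP and -4.85, -4.81, -3.69 and -4.59 on control. UCP2 was well above background on 0 WP and 3 control arrays and was not tested. The bound from its diet means was 1.17-fold lower on WP, but it takes no account of the spread between calves. WP was higher than control in calf 23, and the ranges overlapped, so no lower level on WP is established. UCP3, its relative in muscle, was not well above background on any array, and the UCP2 and UCP3 probes lie 18151 bases apart.

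**Figure D3:**
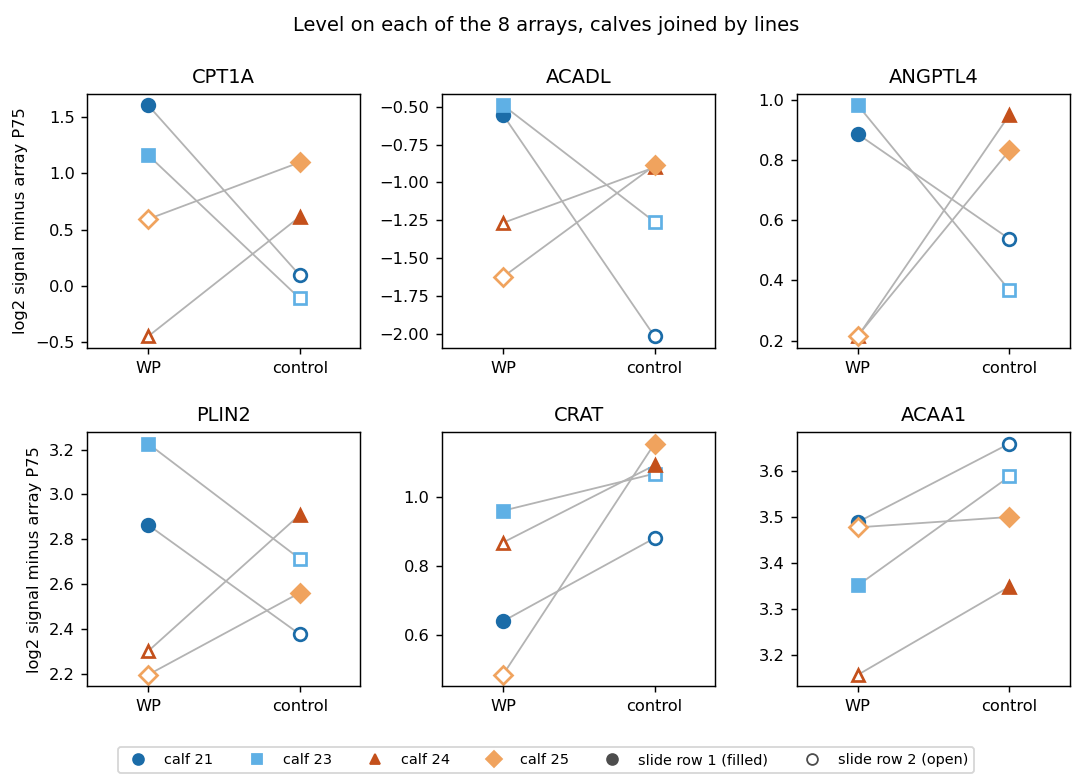
The y axes are levels (log2 signal minus the array's 75th percentile) of 6 genes, with WP left and control right, and lines join the arrays of a calf. Filled symbols are arrays in slide row 1 and open ones in row 2. In CPT1A, ACADL and ANGPTL4 every filled symbol lies above every open one, while in CRAT and ACAA1 each line runs upward to control.

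The slide holds the arrays in 2 rows. The sample labels do not state the row of an array, which was read from the name of its scan. Row 1 held the WP arrays of calves 21 and 23 and the control arrays of calves 24 and 25, and row 2 held the other 4, so each calf had 1 array in each row. A gene with one sign in calves 21 and 23 and the opposite sign in calves 24 and 25 therefore has a single row sign in 4 of 4 calves by arithmetic, and the row values below restate that division rather than test it independently. The feeding period of each array is not stated in the labels, so row and period cannot be told apart. The row difference was tested with calf and diet in the fit, a test added after the data were seen, as were the names of ACADL, DECR1 and ETFA in the text.

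By row, 7 of the 25 tested genes were higher in row 1 in 4 of 4 calves, where 10.6% of all probes were, and 0 were lower in 4 of 4, where 10.4% of all probes were. The 7 were CPT1A, CPT2, ACADL, DECR1, ETFA, ANGPTL4 and PLIN2. The row difference was positive in 19 of 25 genes and in 4667 of all 10236 probes, with a median of 0.17 against -0.03 for all probes. The median size of the row difference was 0.23 in the set and 0.17 over all probes, and the row difference was larger than the diet difference in 15 of 25 genes and in 49.8% of all probes. Limma called 0 of 10236 probes by row (0%), with a smallest adjusted p of 0.231, and 6 of the 25 genes had an unadjusted p under 0.05, where 12.9% of all probes did. All 6 were higher in row 1 (5.6% of all probes) and 0 were lower (7.3%).

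CPT1A had the largest row difference of the set, 1.09 ± 0.14 (SE; unadjusted p = 0.00161, adjusted p = 0.255, limma), a ratio of 2.13. In the same fit, with calf and row as blocks, its diet difference was 0.30 ± 0.14 (SE; unadjusted p = 0.103, adjusted p = 0.501, limma). Without row in the fit, the SE of that diet difference was 0.50. CPT1A levels were 0.61 to 1.61 in row 1 and -0.45 to 0.59 in row 2, without overlap. ACADL differed by 0.83 ± 0.17 (SE; unadjusted p = 0.00768, adjusted p = 0.298, limma), with -0.90 to -0.49 in row 1 and -2.02 to -1.26 in row 2. In both genes each calf had the higher level on its row 1 array. With 1 calf left out, calf 24 among them, the row difference stayed between 0.95 and 1.23 for CPT1A and between 0.66 and 1.01 for ACADL.

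ANGPTL4 differed by row by 0.58 ± 0.11 (SE; unadjusted p = 0.00623, adjusted p = 0.298, limma), with 0.83 to 0.98 in row 1 and 0.21 to 0.54 in row 2. PLIN2 differed by 0.49 ± 0.11 (SE; unadjusted p = 0.00971, adjusted p = 0.303, limma), and its rows overlapped, with 2.56 to 3.23 in row 1 and 2.20 to 2.71 in row 2. In PLIN2 the 4 calves had row differences between 0.37 and 0.61. With 1 calf left out, the row difference stayed between 0.51 and 0.64 for ANGPTL4 and between 0.43 and 0.55 for PLIN2. Rows did not overlap in 4 genes, CPT1A, ACADL, ETFA and ANGPTL4, all higher in row 1, where 3.36% of all probes did so.

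ETFA differed by row by 0.45 (unadjusted p = 0.0339, adjusted p = 0.357, limma) and DECR1 by 0.37 (unadjusted p = 0.0389, adjusted p = 0.366, limma). CPT2, with a row difference of 0.16, was higher in row 1 in each calf but had an unadjusted p of 0.234 in limma. The subunits HADHA and HADHB had row differences of 0.17 and 0.12. By class the row medians were 0.16 in the carnitine shuttle, 0.22 in the mitochondrial cycle and 0.37 in the inducible targets, against -0.11 for the 2 tested peroxisomal genes and -0.33 for the 2 tested regulators. ECI2 had a row difference of -0.17 and ACAA1 of -0.05. In a list of other peroxisomal genes, 19 of 28 tested were higher in row 1, beside 4667 of all 10236 probes, with a row median of 0.06. PPARA had a row difference of -0.74 (unadjusted p = 0.108, adjusted p = 0.460, limma), with -2.17 in calf 24, whose WP array stood apart. The other tested regulator, PPARD, had 0.09.

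**Figure D4:**
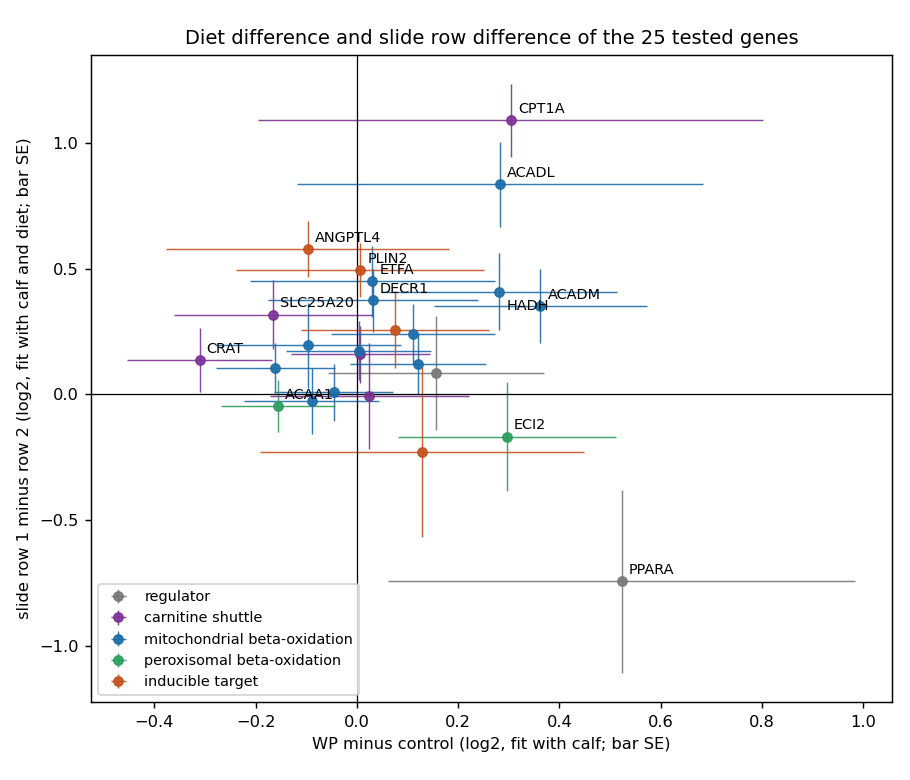
Each point is a tested gene, with the WP minus control difference on the x axis and the slide row 1 minus row 2 difference on the y axis, both log2 from the fits with bars of SE, coloured by class. CPT1A, ACADL, ANGPTL4 and PLIN2 lie highest on the y axis, and PPARA lies lowest, at -0.74.

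Marker lists of other cells had medians away from 0 by diet, and some of them also by row. No marker had an adjusted p under 0.05 in limma, and the part of these cells in the results was not tested. In bulk tissue, fewer cells of a type and less RNA per cell cannot be told apart. Of the 8 fibroblast markers, 7 had a positive difference, WP minus control, with a median of 0.64, and summed levels of 4.16 to 5.41 on WP and 3.29 to 5.28 on control (log2). All 7 tested endothelium markers had a positive diet difference, with a median of 0.42 and summed levels of 2.32 to 3.22 on WP and 1.95 to 2.78 on control. All 5 tested smooth muscle markers did too, with a median of 0.38 and summed levels of 3.97 to 4.40 on WP and 3.53 to 4.21 on control. Among all probes, 64.4% had a positive diet difference. The calves were not alike. In calves 21, 23, 24 and 25 the fibroblast medians were -0.45, 0.55, 0.82 and 1.20. The endothelium medians were -0.38, 1.66, 0.06 and 0.51, and those of smooth muscle 0.11, 0.80, 0.49 and 0.08. By row, 7 of the 8 fibroblast markers had a negative difference, with a median of -0.26, and COL1A2 and COL3A1 differed by -1.16 and -1.20. Summed fibroblast levels were 3.29 to 4.31 in row 1 and 3.73 to 5.41 in row 2. The 5 tested leukocyte markers had a row median of -0.53, with summed levels of 1.02 to 1.44 in row 1 and 1.46 to 2.26 in row 2. The row median was 0.04 for endothelium, with 5 of 7 markers positive, and 0.11 for smooth muscle, with 3 of 5 positive.

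The 14 stratified epithelium markers had a median diet difference of -0.04, with 6 positive and 8 negative. Over the list the differences ran from -1.07 to 0.50. IVL and SPINK5 are named because they were the 2 of the 14 with an unadjusted p under 0.05. Their diet differences were -1.07 and -0.94 (unadjusted p = 0.0400 and 0.0190, adjusted p = 0.658 for both, limma). Of all probes, 1.75% were lower on WP at that threshold. The row median of the list was 0.16, with 9 positive and 5 negative, from 0.58 for KRT5 to -0.75 for IVL. The summed levels of the 14 were 8.88 to 9.43 on WP and 9.26 to 9.42 on control. Of the 8 adipocyte markers 2 were tested, FABP4 and GPD1, while LEP and PLIN1 were well above background on 0 arrays and ADIPOQ on 1. Summed levels of FABP4 and GPD1 were 0.76 to 3.62 on WP and 1.38 to 4.08 on control. FABP4 alone reached 3.61 on WP and 4.08 on control, and it is not particular to fat cells, so these sums do not measure fat content. Of 10 striated muscle markers 3 were tested, with summed levels of -1.98 to -0.87 on WP and -2.10 to -1.46 on control.

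Other genes of the pathway were read from the same fit. Of 111 genes in 4 lists, 105 had a probe and 78 were tested, and limma's adjusted p was under 0.05 for 0 of them. At an unadjusted p under 0.05, 2 were higher on WP (5.24% of all probes) and 1 was lower (1.75%). ACADSB, a short branched-chain acyl-CoA dehydrogenase, was higher on WP in 4 of 4 calves by 0.46 (unadjusted p = 0.0425, adjusted p = 0.658, limma). SLC22A5, the carnitine importer of the plasma membrane, was higher in 4 of 4 by 0.37 (unadjusted p = 0.0448, adjusted p = 0.658, limma). SIRT3, a mitochondrial deacetylase, differed by 0.37 ± 0.31 and was higher in 4 of 4 calves.

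CIDEA, a lipid droplet protein, had levels of -0.68, -0.32, -1.05 and -0.87 on WP and 0.13, -0.19, -0.39 and -0.12 on control. CIDEA was lower in 4 of 4 calves by 0.59 ± 0.31 (SD, n = 4; unadjusted p = 0.0128, adjusted p = 0.658, limma), and the WP value of calf 23 lay within the control range. ABCD3, a peroxisomal fatty acid transporter, differed by -0.22 ± 0.05 (SD), lower in 4 of 4 calves, and SLC27A4, a fatty acid transport protein, by -0.36 ± 0.43, lower in 3 of 4.

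PPARG, the receptor of fat and of several epithelia, differed between diets by 0.17 ± 0.45 (SD, n = 4; adjusted p = 0.780, limma). FABP4, a fatty acid carrier of fat cells, macrophages and capillaries, differed by -0.86 ± 1.94, with WP of calf 24 at 3.61 and control of calf 21 at 4.08 as its highest arrays. The fatty acid translocase CD36 was well above background on 0 arrays. By slide row, 17 of the 78 genes were higher in row 1 in 4 of 4 calves (10.6% of all probes) and 5 were lower in 4 of 4 (10.4%).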

How the data were processed

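Cy3-labelled RNA of rumen epithelium was read on 8 one-colour Agilent arrays (design 072598, per the file headers). Each deposited scanner file gives the intensity of every spot and a processed signal from which background had been taken. The headers name Feature Extraction 11.0.1.1, and the submitters' processing notes name version 9.5. The authors' table of log2 values equalled log2 processed signal less a constant for each array and was used as an alternative. Probe names, positions on UMD 3.1 and spot flags are other columns that the authors deposited.

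After 536 control spots and outlier flags were left out, spots of a probe were averaged, and the array's 75th percentile was subtracted from log2 processed signal. Of 15008 probes, 10236 (68.2%) were well above background on 4 arrays or more and entered limma 3.58.1 (R 4.3.3, lmFit and eBayes, two-sided, Benjamini-Hochberg adjustment over these probes, threshold 0.05), with calf as a block. The pairing rests on the calf numbers in the labels and the cross-over. Across probes, the 2 arrays of calves 21, 23, 24 and 25 deviated from their diet means with correlations of 0.00897, 0.195, 0.0600 and 0.0475. A bound sets a dim probe at its own signal or at the lowest signal among probes well above background on that array, whichever is higher. RefSeq (ARS-UCD2.0, for names only) named 11194 probes through an accession, 3085 through a symbol and 44 through an older one; 685 kept the name in the design.

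The genes, classes and pathway lists were chosen with earlier results of these data known. The rule gave values on all arrays for 15 listed genes, and for any with an unadjusted p under 0.05, with 4 of 4 calves in 1 direction, or with diets that did not overlap. Outside the set it named the 3 smallest p values in each direction and some genes by name, of which CD36, FABP4 and PPARG are given and the others are not reported here. The steps were tested on simulated data. Alternatives were normexp background correction (offset 50), quantile and cyclic loess scaling, the authors' table, the filter, the blocks, each row alone, a variance trend with robust prior, averaging of probes and leaving out each calf. The slide row test and its alternatives were chosen after seeing the data.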

Additional observations from a re-analysis of the deposited data

Results flagged for a closer look

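In 7 genes the diet difference had 1 sign in calves 21 and 23 and the other sign in calves 24 and 25. The mean of the first pair minus that of the second was 2.18 for CPT1A, 1.67 for ACADL, 1.16 for ANGPTL4, 0.987 for PLIN2, 0.898 for ETFA, 0.747 for DECR1 and 0.317 for CPT2 (log2). CPT1A differed by a mean of 1.39 in calves 21 and 23 and by -0.78 in calves 24 and 25. The same division of signs was present in 21.0% of all probes. The row test, which is the test of this difference between the calf pairs, left adjusted p values of 0.255 for CPT1A and 0.298 to 0.584 for the other 6 (limma), so none passed.

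A screen for 1 of 4 values far from the other 3 marked 5 of 90 groups, and chance marks about 1 in 20. All 5 were levels on control arrays. CPT2 had a lowest control level of 2.91 in calf 21, against 3.25 for the next, and HADHB a lowest control level of 0.912 in the same calf, against 1.27. EHHADH had a lowest control level of -6.95 in calf 23. FABP3 had a highest control level of -4.20 in calf 25, and UCP3 one of -6.35 in that calf. EHHADH and UCP3 were not well above background on these arrays.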

How the results depend on the processing

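The number of genes of the set past the adjusted threshold was 0 under every alternative run. Of these, averaging of probes could not change the differences of the set, because each gene had 1 probe. The authors' table holds the same signals less another constant per array, so it is not an independent check. Each row alone compares WP arrays of some calves with control arrays of others, unpaired, so calf and diet are not separated there. With no replicate block, which ignores the pairing of calves, it was 0 again, 785 probes had an unadjusted p under 0.05 against 715 with the block, and the differences are the same with or without blocks because the design is balanced. The count at an unadjusted p under 0.05 was 1 lower after normexp correction and with the variance trend and robust prior together (CRAT in both), 1 higher without the filter (EHHADH), 2 higher within row 1 (PPARA and ETFDH), 1 lower within row 2 (ETFDH), and 0 to 1 higher with a calf left out (ECI2, without calf 23). In either direction, 1360 of 10236 probes were under 0.05 after normexp and 705 with the trend and robust prior. Without the filter 903 of 15008 were. Within row 1 the count was 649, within row 2 it was 464, and without calf 23 it was 544, each of 10236. Of the 25 tested genes, the number that changed sign was 4 after normexp, 4 under quantile and 5 under cyclic loess scaling, 10 within row 1 and 6 within row 2, and 10, 6, 4 and 3 without calves 21, 23, 24 and 25. Among genes given on all arrays by the rule, these were CPT2 (-0.0325), HADHA (-0.0218) and PLIN2 (-0.0746) after normexp, PPARD (-0.59) under quantile scaling, PPARA (-0.0532) and PPARD (-0.35) under cyclic loess, PPARD (-0.11), CPT2 (-0.0388), ACADVL (0.132) and ANGPTL4 (0.0428) within row 1, and HADHA (-0.0462) and PLIN2 (-0.30) within row 2. With a calf left out, the ranges of those genes that crossed 0 were -0.0272 to 0.905 for PPARA, -0.0981 to 0.760 for CPT1A, -0.0890 to 0.0922 for CPT2, -0.0636 to 0.122 for HADHA, -0.33 to 0.12 for ANGPTL4 and -0.16 to 0.21 for PLIN2. Class medians with a calf left out ranged from -0.01 to 0.55 for regulators, -0.13 to 0.09 for the shuttle, -0.06 to 0.20 for the mitochondrial cycle and -0.10 to 0.16 for inducible targets. Normexp gave 13 positive and 12 negative differences, and leaving out calf 21 gave 7 and 18. By slide row, 91 of 10236 probes passed after normexp (CPT1A, adjusted p = 0.0213, limma) and 335 with the trend and robust prior together. With that prior, adjusted p values by row were 0.00299 for CPT1A, 0.0165 for ANGPTL4, 0.0210 for ACADL and 0.0236 for PLIN2 (limma). The cause of these changes was not tested. Genes near background (PPARA, PPARD, FABP3 and the 5 not tested) have limits set by signal.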
